A study of Mus musculus with 5 samples.

Results

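The genes described here are 9 genes of insulin and insulin-like growth factor (IGF) signalling in C2C12, a mouse myoblast line; myoblasts are the precursors of skeletal muscle fibres. They are the receptor genes Igf1r and Insr, the receptor substrate genes Irs1 and Irs2, the phosphoinositide 3-kinase subunit gene Pik3r1 and the IGF binding protein genes Igfbp2, Igfbp3, Igfbp4 and Igfbp5. They were taken by gene symbol from a table of 12615 genes, and all 9 were listed and passed the minimum level for testing. RNA was sequenced from 3 samples transfected with an empty control vector (pCMVmiR) and 2 samples labelled miR-16 knockdown, all of the same line, with 1 μg of plasmid DNA and a time of 5 hours. The group label gives a knockdown and the authors' comparison an inhibition, while the protocol names a plasmid for miR-16-1. Mature miR-16 was not measured in the files used here, so the direction of the treatment rests on the label. Whether replicates were grown as separate cultures is not given, so p-values here cover the spread among these 5 samples alone, and that spread may be technical.

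Insulin and IGFs bind receptor tyrosine kinases on the cell surface. The activated receptors phosphorylate the IRS adaptor proteins, which recruit phosphoinositide 3-kinase through its regulatory subunit and so switch on AKT, the kinase that promotes glucose uptake, protein synthesis and survival. IGF binding proteins are secreted, hold IGFs outside the cell and can hinder or help their action. In muscle this pathway drives growth of the fibres and both division and differentiation of myoblasts. MicroRNAs such as miR-16 pair with short sites in the 3' UTR of messenger RNAs and reduce the amount or translation of the message; the series compares myoblast RNA with and without manipulation of miR-16.

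Pairing of a microRNA with its target rests mainly on the seed, bases 2 to 8 counted from the 5' end. The following mature sequences from RefSeq (build GRCm38.p6) are shown because they share the seed of miR-16-5p, set in capitals, so that letters pairing with the seed of one pair with the seed of all. The seed occurs in 10 mature mouse microRNAs of that table, of which 6 are printed.
miR-16-5p: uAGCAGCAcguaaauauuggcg
miR-15a-5p: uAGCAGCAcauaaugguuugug
miR-15b-5p: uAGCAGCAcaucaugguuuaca
miR-195a-5p: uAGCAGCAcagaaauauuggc
miR-322-5p: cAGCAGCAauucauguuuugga
miR-497a-5p: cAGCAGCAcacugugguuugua
The protocol names miR-16-1, whose hairpin lies at chr14:61631880-61631972 on the minus strand (GRCm38.p6) and carries mature miR-16-5p, in capitals, in its 5' arm.
Mir16-1 hairpin: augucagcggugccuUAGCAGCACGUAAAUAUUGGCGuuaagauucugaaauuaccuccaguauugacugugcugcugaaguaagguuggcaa

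Letters that pair with this seed, or with its bases 2 to 7 and followed by A, were found in the 3' UTRs of 7 of the 9 genes. The longest annotated 3' UTR of each gene in GENCODE M21 (GRCm38) was searched on the transcript strand for TGCTGCT (called 7mer-m8), the same letters followed by A (TGCTGCTA, 8mer) and GCTGCTA without the leading T (7mer-A1), each site being counted once under its longest form. The 7 genes held 11 sites, 1 of them an 8mer, 7 of them 7mer-m8 and 3 of them 7mer-A1. A 7mer-A1 pairs with bases 2 to 7 only, and the 1 site of Irs1 is of this kind. At least 1 site was present in 29.3% of the 11495 tested genes with a 3' UTR. It was present in 47.4% of those whose 3' UTR was at least as long as that of Igfbp3, the shortest of the 7 with 1435 nt. The others of the 7 had 2329 to 7267 nt, so neither share is matched to their length. Insr held 4 sites in 4747 nt and Igf1r held 2 in 7267 nt. The other genes with sites held 1 each. No match was found in the 4445 nt of Igfbp5 or the 312 nt of Igfbp2. A match of letters is a description and shows no binding, and which 3' UTR these cells use was not measured.

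Sites of the receptor, substrate and kinase genes, with 3 of the 4 in Insr, are shown with the bases before them, in a window of 30 bases that ends with the site, which is in capitals. They are the places where the manipulated microRNA could pair with these messages.
Igf1r 7mer-A1, chr7:68227725-68227754, plus strand: tacatctgtacaggaaaagaaaaGCTGCTA
Igf1r 7mer-m8, chr7:68229928-68229957, plus strand: ctgcctctgtccacccatccgtcTGCTGCT
Insr 7mer-m8, chr8:3154981-3155010, minus strand: agttcctcaaattgaccaatagcTGCTGCT
Insr 7mer-A1, chr8:3154329-3154358, minus strand: tttctgggaattataccacattaGCTGCTA
Insr 7mer-m8, chr8:3151183-3151212, minus strand: gtctttatcctttgtatcaaagtTGCTGCT
Irs1 7mer-A1, chr1:82235138-82235167, minus strand: aagggtttcctttaagcacatcaGCTGCTA
Irs2 7mer-m8, chr8:10986888-10986917, minus strand: cttggcatgtttccgaccaacgcTGCTGCT
Pik3r1 8mer, chr13:101681084-101681113, minus strand: agatagcattggctgcccaggaTGCTGCTA
The sites of the binding protein genes Igfbp3 and Igfbp4 are of the 7mer-m8 kind.
Igfbp3 7mer-m8, chr11:7207155-7207184, minus strand: cacccacccagtacgggcttcaaTGCTGCT
Igfbp4 7mer-m8, chr11:99052133-99052162, plus strand: tcctgagacccacctctgctctgTGCTGCT

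**Figure D1:**
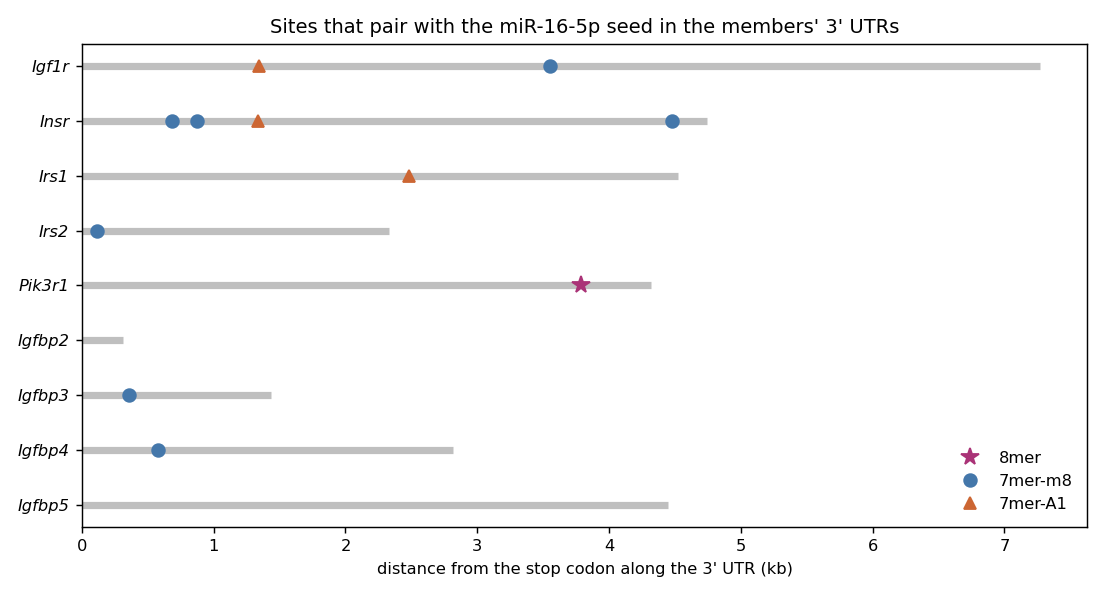
Position of each seed match along the longest annotated 3' UTR of the 9 genes, in kb from the stop codon; grey bars give the length of the 3' UTR and symbols the kind of site. Insr carries 4 sites and Igf1r carries 2, while Igfbp2 and Igfbp5 carry none.

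The files hold an estimated 15.1 to 20.1 M reads per sample over the listed genes. The values are normalized signal, a read count divided by a factor for each sample, and 1 read was worth 0.812 to 1.08 units. For the 9 genes except Igfbp4 this means at least 451 reads in every sample, and for Igfbp4 20.0 to 49.0 reads. The column names carry a run code of the kind that sequencers give flow cells. Empty vector samples 1 and 3 share one code (run A) and the other 3 samples share another (run B), so within run B empty vector 2 is the only control. Long transcripts also differed between samples. Log2 signal was centred on each gene's mean over the 5 samples, so its slopes on length are relative to that mean. Such slopes cannot all have the same sign. Per doubling of transcript length the slope was 0.070, -0.018 and 0.055 with empty vector (samples 1, 2 and 3). With knockdown it was -0.014 and -0.094 (samples 1 and 2). Relative to the mean of the 5 samples, both run A samples had positive slopes and all 3 run B samples negative ones. Alternatives for length and for run code are therefore not separate checks. The myoblast genes Myod1, Myf5, Des, Cdh15, Vcam1 and Itga7 were all listed, with summed signals of 9285 to 9922 in empty vector and 9344 to 9879 in knockdown samples. Of the epithelial markers Epcam, Cdh1 and Krt8, 0 of 3 were listed. The endothelial marker Kdr had 13.9 to 22.7 units with empty vector and 9.38 and 12.9 with knockdown, without overlap, and the adipocyte marker Fabp4 had 1.88 to 10.8 over all samples, each the only 1 listed of 3. The macrophage list, 2 of 4 listed, summed to 397 to 441 with empty vector and 384 and 440 with knockdown, almost wholly from Cd14. The fibroblast list, also 2 of 4, summed to 329 to 374 with empty vector and 276 and 343 with knockdown. Within it Pdgfra had 249.9, 258 and 262 units with empty vector and 192 and 227 with knockdown, without overlap, as for Igfbp3 and Irs1 below; the part of such cells in the results was not tested. Of 5 myotube markers only Acta1 was listed, at 34.9 to 59.3.

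All 9 genes had lower mean values with knockdown than with empty vector, and none of these differences passed the test. Of all 11990 genes tested, 49.8% had a log2 difference below 0. The test was limma on log2(signal + 1) over all genes with a mean signal of at least 10, two-sided, and p-values were adjusted by the Benjamini-Hochberg method, with 0.05 as the threshold. It called 0 of the 9 genes, against 0.0% of all genes. Adjusted p-values of the 9 ranged from 0.535 to 0.897. At an unadjusted p under 0.05 stood 2 of the 9, Igfbp3 and Irs1, both lower, compared with 5.3% of all genes on the lower side and 8.13% on both sides. The same 2 genes were the ones whose groups did not overlap, which held on the lower side for 12.4% of all genes and on either side for 23.8%. The median log2 difference of the 9 genes was -0.26 beside 0.00073 for all genes, where a negative value means lower with knockdown. With the length trend removed, 6 of the 9 were lower, beside 47.7% of all genes, and the median was -0.080. Within run B, 8 of the 9 were lower, beside 52.7% of all genes, and the median was -0.17. The 9 genes were chosen with earlier results of these data known, so their count is a description only. In bulk RNA, fewer cells of a kind and less RNA per cell cannot be told apart.

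**Figure D2:**
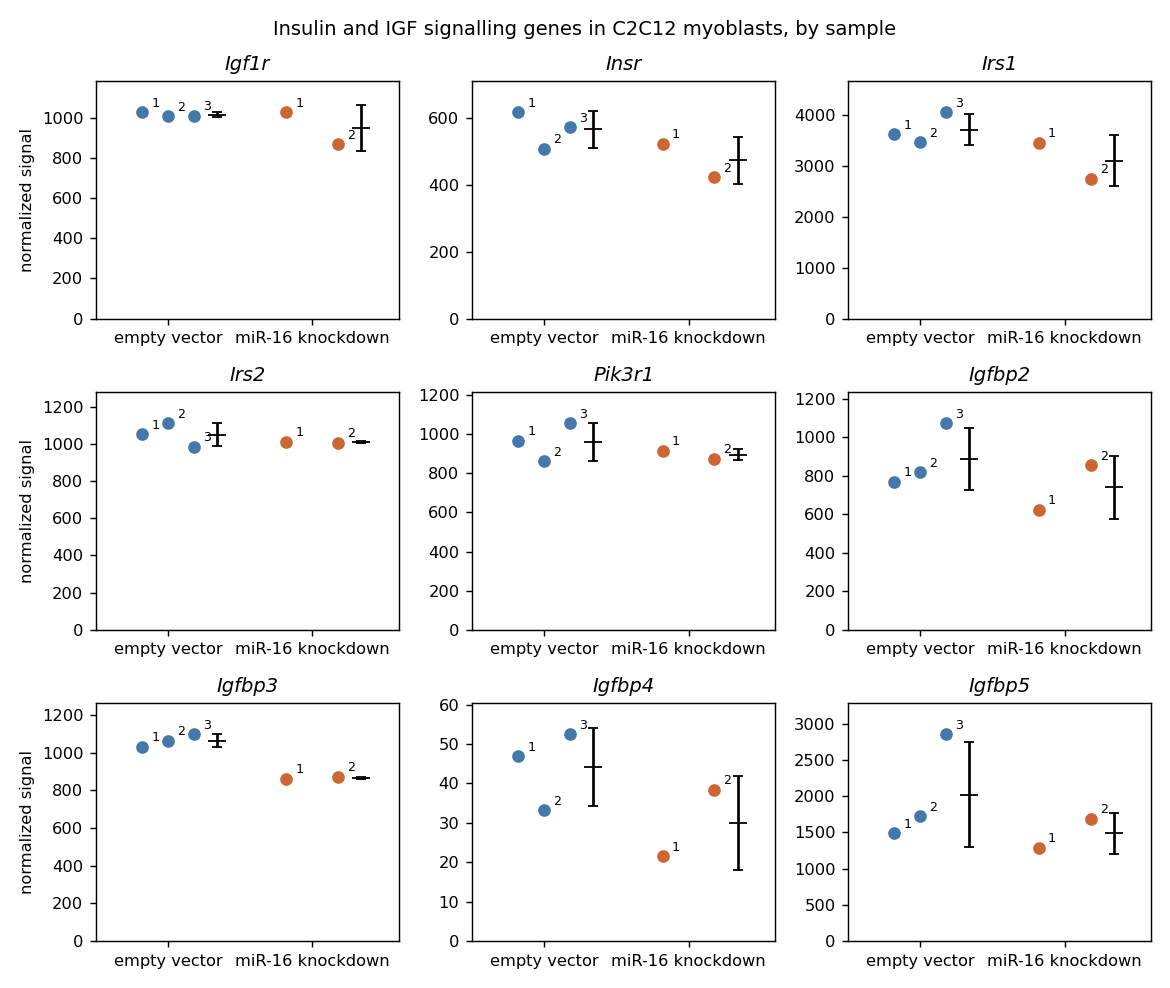
Normalized signal of each of the 9 genes in the 3 empty vector and 2 knockdown samples, numbered by replicate, with the group mean and SD as black bars; each axis starts at 0. Igfbp3 shows 2 groups that do not overlap, and Igfbp5 shows 1 empty vector sample at 2857, above the other 4.

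The ligands were scarce in these cells. Igf2, a fetal growth factor that myoblasts use as an autocrine signal, had 24.6, 27.6 and 11.8 units with empty vector and 41.0 and 46.9 with knockdown. Its groups did not overlap, which held on the higher side for 11.4% of all genes. The log2 difference of Igf2 was 1.09 ± 0.43 (SE), with an adjusted p of 0.565 by limma. With 1 read worth 0.812 to 1.08 units, its values rest on few reads. Within run B it was 0.65. Igf1, the other IGF, stood at 10.5 to 17.1 units in all 5 samples. Ins1 and Ins2 were not analysed here. Per kb of transcript Igf2 had a mean of 6.43 units and Igf1 1.97, and the lowest of the 9 genes, Igfbp4, had 10.1. In knockdown 1, Igf2 stood above Igfbp4, with 8.68 against 5.63.

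Igf1r encodes the receptor for IGF-1 and IGF-2 and lies at chr7:67952827-68233668 on the plus strand (GRCm38). It had 1027, 1005 and 1009 units with empty vector (samples 1, 2 and 3, the order used throughout) and 1028 and 868 with knockdown (samples 1 and 2). Knockdown 1 was thus at the level of the controls, and only knockdown 2 was below them. The log2 difference was -0.10 ± 0.096 (SE), with a 95% confidence interval of -0.31 to 0.10 (adjusted p = 0.811 by limma). Without knockdown 2 it was 0.019, and after removal of the length trend it was 0.13, both of the opposite sign. Knockdown 2 is the sample with the most negative length slope and Igf1r has the longest transcript of the 9 genes, 11409 nt, and the part of length in this value was not tested beyond that alternative.

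Insr encodes the insulin receptor, which also forms hybrids with the IGF-1 receptor, and lies at chr8:3122061-3279617 on the minus strand. Its values were 618, 509 and 573 units with empty vector and 524 and 423 with knockdown. The groups overlapped, since empty vector 2 was below knockdown 1. This gave a log2 difference of -0.26 ± 0.13 (SE), interval -0.53 to 0.0049 (adjusted p = 0.612 by limma). Against empty vector 2 alone, within run B, it was -0.11, and with the length trend removed it was -0.071. Igf2r, which encodes the receptor that takes IGF-2 up for breakdown and was the third receptor gene listed, had 1547, 1519 and 1580 units with empty vector and 1524 and 1147 with knockdown. Its log2 difference was -0.23 (adjusted p = 0.606 by limma), and as with Igf1r only knockdown 2 lay far below the controls. All 3 receptor genes had their lowest value in knockdown 2.

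Irs1 encodes the main insulin receptor substrate of muscle and lies at chr1:82233101-82291416 on the minus strand. Its values were 3610, 3459 and 4049 units with empty vector and 3447 and 2742 with knockdown. The groups did not overlap, but knockdown 1 and empty vector 2, both of run B, stood close together at 3447 and 3459. On the log2 scale the difference was -0.27 ± 0.10 (SE), interval -0.48 to -0.051 (adjusted p = 0.565 by limma). The ratio of the group means was 0.835. Without knockdown 2 the log2 difference was -0.10, without knockdown 1 it was -0.43 (adjusted p = 0.0854), within run B it was -0.17, and with the length trend removed it was -0.080.

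Irs2, the second widely expressed substrate gene, lies at chr8:10984681-11008458 on the minus strand. It had 1052, 1111 and 985 units with empty vector and 1011 and 1007 with knockdown. Both knockdown values lay inside the range of the controls. The log2 difference was -0.054 ± 0.091 (SE), interval -0.25 to 0.14 (adjusted p = 0.897 by limma), the smallest of the 9 in this fit. Within run B it was -0.14, and with the length trend removed it was 0.048, of the opposite sign. Whether Irs1 and Irs2 differed in their response was not tested.

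Pik3r1 encodes p85 alpha, the regulatory subunit that docks phosphoinositide 3-kinase to the IRS proteins, and lies at chr13:101680563-101768217 on the minus strand. Its values were 968, 861 and 1056 units with empty vector and 915 and 874 with knockdown. The knockdown samples lay between the lowest and the highest control. The log2 difference was -0.099 ± 0.10 (SE), interval -0.32 to 0.12 (adjusted p = 0.826 by limma). Within run B it was 0.055 and with the length trend removed 0.030, both of the opposite sign. This is the gene with the only 8mer site, and Insr is the one with the most sites. Over all tested genes, the median log2 difference was -0.020 for those with a site and 0.0087 for those without. Among the insulin and IGF signalling genes chosen for description the order was the other way, with -0.26 and -0.33. Genes with and without a site were not matched for length, and the part of length in these medians was not tested.

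**Figure D3:**
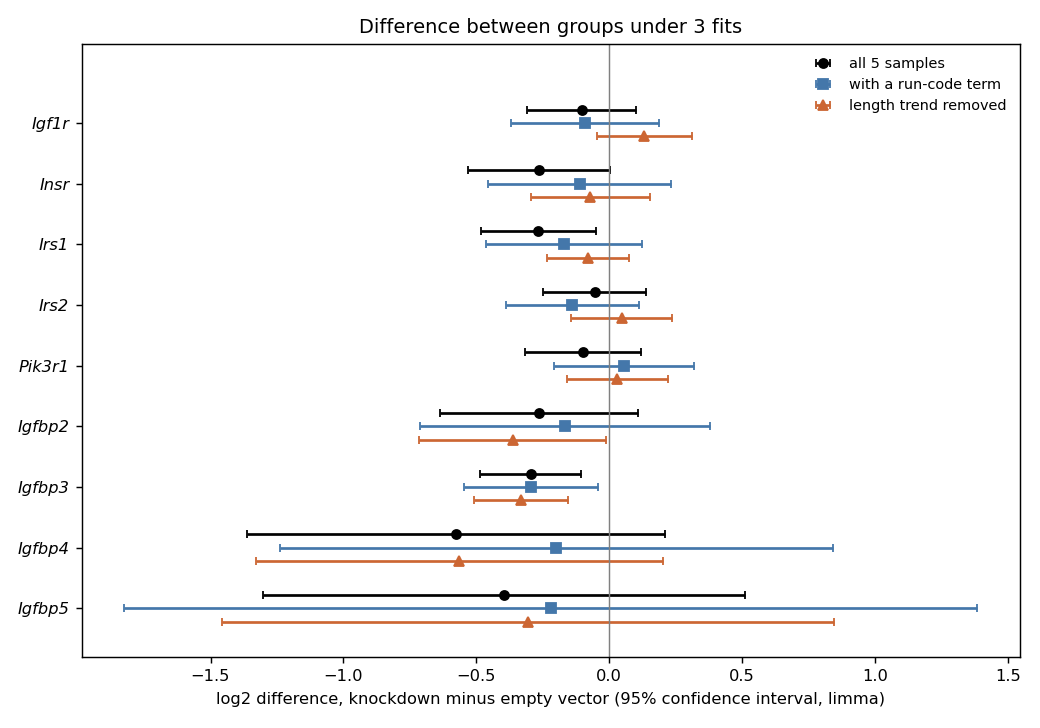
Log2 difference between knockdown and empty vector for each gene, with its 95% confidence interval, from all 5 samples (black circles), with the run code as a term (blue squares) and after removal of the length trend (orange triangles). Igfbp3 stays near -0.3 in all 3 fits, while Igf1r, Irs2 and Pik3r1 change sign in at least 1.

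Among the IGF binding proteins, Igfbp3 had the most separate groups. It encodes the main IGF carrier of serum, also secreted by many cells, and lies at chr11:7206086-7213923 on the minus strand. Its values were 1032, 1063 and 1098 units with empty vector and 861 and 872 with knockdown. Every knockdown value was below every control, and the spread within each group was small beside the gap, with group means of 1064 ± 33.3 (SD, n = 3) and 867 ± 7.16 (SD, n = 2). Counting alone gives a relative error of 3.54% at the lowest of these samples. That is more than the spread of the 2 knockdown values, so their closeness is no measure of precision. Limma gave a log2 difference of -0.30 ± 0.089 (SE), interval -0.48 to -0.11, with an unadjusted p of 0.00452 and an adjusted p of 0.535 by limma. Within run B it was -0.29, with the length trend removed -0.33, and with single samples left out it ranged from -0.32 to -0.27. It was below 0 under each of 16 alternatives, but most of these could not turn its sign. Since the groups did not overlap, leaving out samples, the run code and the replicate block all had to give a value below 0. A change of filter or variance trend leaves the value as it is. Its adjusted p by limma ranged from 0.102 to 0.9999 over these and the main fit.

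Igfbp5 encodes the binding protein most closely tied to differentiating myoblasts, and Igfbp2 encodes another that cells of mesenchymal origin secrete. They are neighbours on chromosome 1, with Igfbp2 at chr1:72824503-72852474 on the plus strand and Igfbp5 at chr1:72857932-72874884 on the minus strand, so that their 3' ends face each other 5458 bases apart. Igfbp5 had 1492, 1721 and 2857 units with empty vector and 1291 and 1692 with knockdown. Igfbp2 had 768, 819 and 1072 units with empty vector and 622 and 856 with knockdown. In both genes empty vector 3 was the highest of the 5 samples and knockdown 1 the lowest. The groups overlapped in both, because knockdown 2 lay above empty vector 1. The log2 differences were -0.39 ± 0.33 (SE) for Igfbp5 and -0.26 ± 0.17 for Igfbp2, with adjusted p-values of 0.809 and 0.713 by limma. Leaving out single samples moved Igfbp5 from -0.59 without knockdown 2 to -0.12 without empty vector 3. Igfbp2 moved from -0.49 without knockdown 2 to -0.035 without knockdown 1, with -0.12 without empty vector 3.

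Igfbp4, which encodes a binding protein that mostly holds IGFs back, had the lowest level of the 9 genes and lies at chr11:99041244-99054392 on the plus strand. Its values were 47.0, 33.3 and 52.5 units with empty vector and 21.6 and 38.5 with knockdown. Knockdown 2 lay between the controls. The log2 difference was the largest of the 9 in size, -0.58, but its standard error was 0.37 and its interval ran from -1.36 to 0.21 (adjusted p = 0.712 by limma). Counting alone gives a relative error of 22.4% at the lowest of these samples, where about 20.0 reads stand behind the value. A range from -0.98 without knockdown 2 to -0.17 without knockdown 1 shows how far single samples moved it.

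The 2 other binding protein genes tested had higher mean values with knockdown, and neither passed the test. Igfbp6, which encodes a binding protein with a preference for IGF-2, had 1639, 2405 and 2202 units with empty vector and 2411 and 2818 with knockdown. Its groups did not overlap, as for 11.4% of all genes on the higher side, yet knockdown 1 and empty vector 2 stood at 2411 and 2405. The log2 difference was 0.34 ± 0.15 (SE), with an adjusted p of 0.606 by limma, and within run B it was 0.12. Igfbp7, which encodes a related secreted protein with weak affinity for IGFs, had 2881 to 3346 units with empty vector and 3246 and 3645 with knockdown (log2 difference 0.14, adjusted p = 0.706 by limma). Its groups overlapped, and within run B the difference was 0.040.

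The make-up of the binding protein transcripts was compared as shares, a measure chosen after the values were seen. Per kb of transcript, Igfbp7 and Igfbp6 together made up most of the 6 measured genes in every sample. Igfbp3 took 7.92%, 6.96% and 7.38% of the summed level with empty vector and 6.005% and 5.23% with knockdown. Igfbp6 took 27.4%, 34.3% and 32.2% with empty vector and 36.6% and 36.8% with knockdown. Neither share overlapped between the groups. The shares of Igfbp2 were 9.92% to 13.4% with empty vector and 8.03% and 9.52% with knockdown, and those of Igfbp5 4.54% to 7.74% and 3.63% and 4.09%. Since shares of 1 total are tied to each other, a higher share of Igfbp6 lowers the rest.

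**Figure D4:**
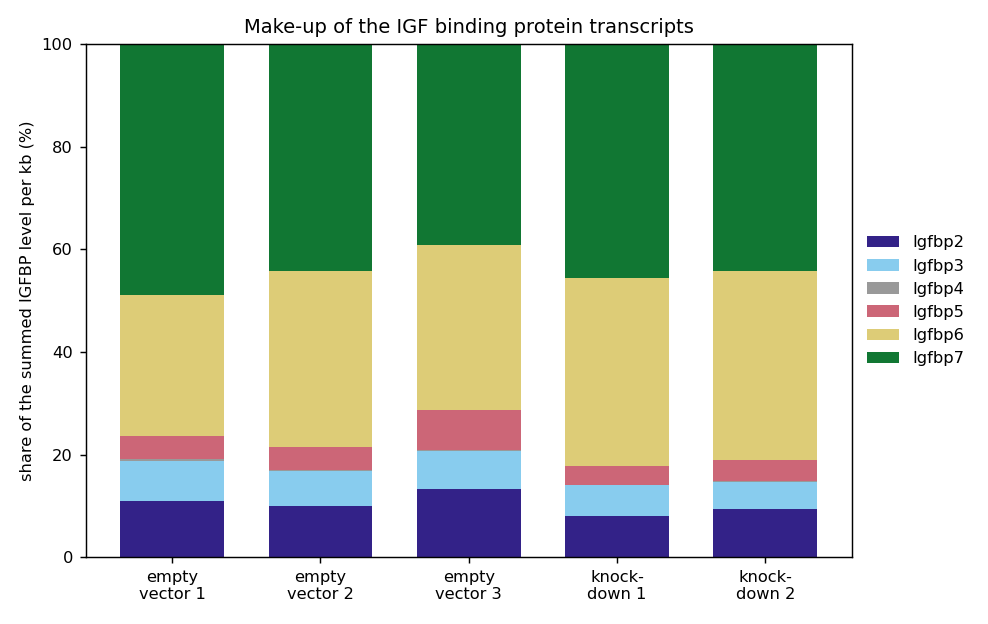
Share of each of the 6 measured IGF binding protein genes in their summed normalized signal per kb of transcript, as stacked bars for the 5 samples. Igfbp6 holds 36.6% and 36.8% in the knockdown samples and 27.4% to 34.3% in the empty vector samples.

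Levels of different genes were set against each other per kb of the longest annotated transcript, over all 5 samples. Igfbp2 stood highest of the 9 with a mean of 633 ± 125 units per kb (SD, n = 5), higher than 85.8% of the listed genes with a known length. Igfbp3 followed with 407 ± 45.8, Irs1 with 379 ± 51.4 and Igfbp5 with 301 ± 102. The ranges of Igfbp3 and Irs1 over the samples overlapped, as did those of Irs1 and Igfbp5, so their order does not hold beyond the spread. Below them came Irs2 with 163 ± 7.88, Pik3r1 with 131 ± 11.2, Igf1r with 86.6 ± 5.93, Insr with 56.6 ± 7.85 and Igfbp4 with 10.1 ± 3.15, with no overlap between neighbours from Igfbp5 downwards. Irs1 was thus the more abundant of the 2 substrate messages and Igf1r the more abundant of the 2 receptor messages in every sample. These orders depend on the length used: with the median length of the coding transcripts in place of the longest, 4 of the 9 levels moved by more than the spread between samples, to 477 for Igfbp3, 516 for Pik3r1, 106 for Insr and 52.0 for Igfbp4. On that scale Insr stood above Igf1r, which stayed at 86.6.

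The wider pathway was described by 8 lists of genes with set roles, 70 genes in all with the 9 included, of which 60 were listed and 59 tested. Lower values with knockdown were seen in 39 of the 59 and higher values in 20, beside 49.8% lower among all tested genes, with a median log2 difference of -0.054 and 0 genes past the threshold by limma. At an unadjusted p under 0.05 there were 6 lower genes and 1 higher of the 59, beside 5.3% lower and 8.13% in either direction among all genes. Without the 9 members, 30 of 50 genes were lower, with a median of -0.027. All these counts are from the main fit, and the part of run code or transcript length in them was not tested. Of the receptors 3 of 3 were lower, of the binding proteins with their proteases and inhibitors 5 of 8, of the adaptors 6 of 12 and of the phosphoinositide 3-kinase subunits 4 of 6. Both tested ligands were higher.

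Among the adaptors, Sos1, which encodes an activator of RAS that works downstream of the receptors, had the smallest p. Its values were 1046, 1049 and 1086 units with empty vector and 911 and 842 with knockdown. The groups did not overlap, and the log2 difference was -0.28 ± 0.090 (SE), with an adjusted p of 0.535 by limma and -0.26 within run B. Crk, an SH2 and SH3 adaptor gene with the highest signal of that list, had a log2 difference of 0.020. Among the kinase subunits, Pik3ca, which encodes the catalytic p110 alpha, had 1297 to 1336 units with empty vector and 1285 and 1161 with knockdown, and Pik3r2, which encodes p85 beta, had 1366 to 1523 and 1302 and 1418. Their log2 differences were -0.10 and -0.094, close to the -0.099 of Pik3r1.

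In the remaining lists, 7 of the 9 genes of the lipid phosphatases, PDK1 and AKT were lower. So were 7 of the 10 receptor phosphatases and feedback inhibitors and 7 of the 9 metabolic effectors. The median log2 differences of these lists were, in that order, -0.038, -0.011 and -0.12, so several of the lower genes lay close to 0. Of all tested genes, 49.8% were lower. Phlpp1, which encodes a phosphatase that inactivates AKT, had a log2 difference of -0.25, and Pdpk1, which encodes the kinase PDK1, had -0.16. Akt1, the most abundant AKT gene, had 0.0090. Trib3, a stress gene whose product binds AKT, had 406 to 475 units with empty vector and 353 and 362 with knockdown, a log2 difference of -0.26. Ptprf, a receptor tyrosine phosphatase gene, had -0.19, and Ptpn11, which encodes SHP2, had -0.0089. Foxo3, a transcription factor gene whose product AKT holds outside the nucleus, had -0.23, Hk2, a hexokinase gene, -0.19, and Slc2a1, the gene of the glucose transporter GLUT1, -0.080. Adjusted p-values of these 9 genes ran from 0.597 to 0.982 by limma, so none passed. Within run B the differences were -0.15 for Phlpp1 and -0.084 for Pdpk1, and -0.41 for Trib3 and -0.38 for Foxo3.

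**Figure D5:**
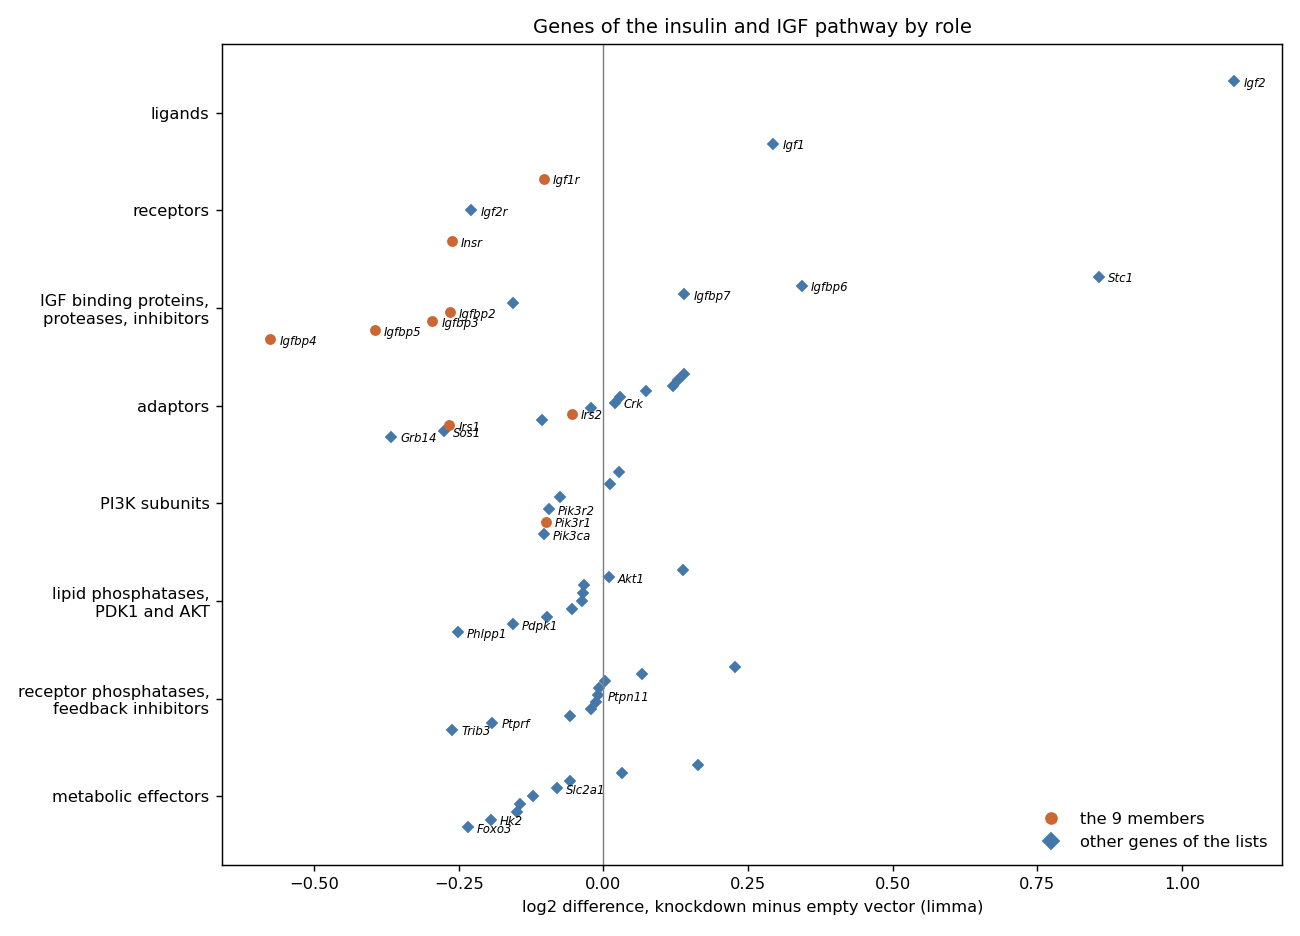
Log2 difference between knockdown and empty vector for the 59 tested genes of the pathway, in rows by role; orange circles are the 9 members and blue diamonds the other genes, with names for those in the text and for those furthest from 0. The 9 members lie between -0.58 and -0.054, and none of the 59 genes passed the threshold.

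Likeness between genes was taken as the root mean square difference of their log2 values over the 5 samples, each centred on its own mean. Within the pathway lists, the gene closest to Irs1 was Igf2r (0.065), the closest to Igf1r was Pik3ca (0.036) and the closest to Insr was Phlpp1 (0.069). Igfbp2 and Igfbp5 were each other's closest (0.16), and Igfbp2 was also the closest to Igfbp4 (0.26). Igfbp3 was closest to Sos1 (0.045), Pik3r1 to Pdpk1 (0.055) and Irs2 to Slc2a1 (0.035). Among the 10539 other genes with a mean of at least 50, the closest to Irs1 were Eif2ak4, 2610507B11Rik and Ptprg (0.025 to 0.026), to Igf1r Tex2 and Elovl6 (0.0066 and 0.013), and to Igfbp5 Asah2, Il33 and Kctd12b (0.098 to 0.15). With 5 samples, such patterns are a description only.

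The authors' deposited table of their own comparison, inhibition against control, listed all 9 genes with ratios below 1, as it did for 50.5% of its 11488 genes. It gave an adjusted p for 8 of them, without Igfbp4. In the authors' deposited table, 0 of these 8 were under an adjusted p of 0.05, against 1.06% of the 6588 genes with such a value, or 0.865% with a ratio below 1. Igfbp3 had an adjusted p of 0.0825 and a ratio of 0.814 in the authors' deposited table, where 2.17% of genes were under 0.1, or 1.79% with a ratio below 1. Irs1 had 0.199827 and a ratio of 0.835 in the authors' deposited table, at rank 339 of the 339 genes under 0.2, which are 5.15% of all, or 3.89% with a ratio below 1. The other 6 had adjusted p-values from 0.411 for Insr to 0.873 for Irs2 in the authors' deposited table.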

How the data were processed

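RNA of 5 C2C12 samples was measured, 3 with empty vector and 2 labelled miR-16 knockdown, with replicate numbers from the titles. STAR, Partek, DESeq2 1.34.0 and build mm9 are named, without their roles, per the submitters' processing notes. The strand setting is not given, so reads of a gene and of an overlapping or antisense partner cannot be told apart. The deposited table holds a signal per gene, judged from its values to be a read count over a size factor. Between 88.7% and 89.2% of the values up to 100 reads were whole within 0.02 reads; the rest were fractional, so no count model was fitted, and the fit planned for normalized values was used. The authors' own p-value, adjusted p-value and ratio per gene were copied from their deposited comparison. Positions in the files have no settled build, so GRCm38 positions of GENCODE M21 are given, by gene symbol (98.9% of symbols matched).

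Genes with a mean signal of at least 10 entered a limma fit (version 3.58.1, R 4.3.3) on log2(signal + 1), with a variance trend and robust estimation; fold changes of low genes are understated on that scale. The fit was first run on simulated data with set fold changes and no effect of run or length. That run checks the code and gives no measure of how small a difference could be found in these samples. In all 10 sample pairs the counts were further apart than sampling noise allows, with a median chi-square of 1.62 to 4.00 per gene where noise gives 0.455, so no sample was taken for a repeat. Named genes are the 9 members, per list the 2 genes with the smallest p at a mean of at least 50 and the gene with the highest mean, and the closest genes by pattern; 1 gene and 1 site sequence are not reported here. Igf1, Stc1 and Socs2 lie outside this rule and were chosen after their values were seen. Members and lists were chosen with earlier results of these data known. Alternatives covered the pseudocount, filter, variance trend, scaling, length trend, replicate block, run code and each sample left out. Precision is limited by 5 samples, and counting error by the reads given beside the values.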

Additional observations from a re-analysis of the deposited data

How the results depend on the processing

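None of the 9 genes passed the threshold under any of the 16 alternatives run, and of 143 such values 137 kept the direction of the main fit and 6 turned. These values are not all separate checks, so their count is no measure of stability. A change of filter or variance trend leaves each log2 difference as it is. The run-code term and run B alone gave the same differences, so the turn of Pik3r1 is counted in both. The replicate block and the fit without empty vector 3 also gave the same differences. With the trend on transcript length removed, Irs2 had 0.048, Igf1r 0.13 and Pik3r1 0.030, and the median of the 9 genes was -0.080. With the run code as a term, or within run B alone, Pik3r1 had 0.055 and the median was -0.17. Leaving out 1 sample at a time, Igf1r ranged from -0.22 (without knockdown 1) to 0.019 (without knockdown 2). The cause of these shifts was not tested. The replicate numbers of the titles are shared by only 2 samples per group, and no label says that a number marks a pairing; deviations of same-numbered samples correlated at 0.086 and 0.029, which with 2 knockdown samples are not independent values. With the replicate block, which in effect sets empty vector 3 aside, 311 genes of the whole table passed and 0 of the 9, and their median was -0.12. Leaving out 1 sample at a time gave 0 to 107 genes past the threshold in the whole table (107 without knockdown 1, 28 without empty vector 2 and 0 without each of the others), while 0 of the 9 passed each time and their median ranged from -0.31 to -0.11. By limma without the variance trend, 0 genes passed as well, with 712 at an unadjusted p under 0.05 beside 975 in the main fit. A filter at a mean of 50 left out Igfbp4, the gene that depth limits most.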

Other observations

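Ratios of normalized signal within the pathway were computed after the values were seen, and are read only between samples. Irs1 over Irs2 was 3.43, 3.11 and 4.11 with empty vector and 3.41 and 2.72 with knockdown, with overlap. Igf1r over Insr was 1.66, 1.98 and 1.76 with empty vector and 1.96 and 2.05 with knockdown, also with overlap. Pik3r1 over Pik3ca was 0.664 to 0.791 over all 5 samples. Igfbp3 over Igfbp6 was 0.629, 0.442 and 0.499 with empty vector and 0.357 and 0.309 with knockdown, with no overlap. Every Igfbp3 value was lower and every Igfbp6 value higher with knockdown, so their ratio could not overlap and adds nothing to those values. The control of run B was the nearest to the knockdown samples. Stc1, which encodes an inhibitor of the protease that cuts Igfbp4, had 18.2, 2.43 and 17.1 units with empty vector and 27.0 and 12.2 with knockdown, with overlap. Socs2, a feedback inhibitor gene, had 390 to 449 units with empty vector and 467 and 519 with knockdown, a log2 difference of 0.23 with an adjusted p of 0.647 by limma.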
